A study of Mus musculus with 22 samples.

Results

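The unfolded protein and amino acid stress response is described here by 37 genes chosen by their known roles: 14 endoplasmic reticulum chaperones and folding enzymes, 6 stress sensors and transcription factors, 10 genes of protein degradation and translocation, and 7 genes of the type that the transcription factor ATF4 controls. Of these, 36 were among the 13750 genes measured at E18.5, an embryonic stage shortly before birth, where Chac1 was not listed, and all 37 were among the 15958 genes measured at 6 months. RNA of mouse lung epithelial cells was sequenced in a study of the long noncoding RNA NANCI and its neighbour Nkx2-1, which encodes a transcription factor that lung epithelium needs. Its title names how this gene pair buffers Nkx2-1 expression. WT mice were NANCI +/+. NANCI mice, sampled at E18.5 alone, carried NANCI-CreERT2:RFP on both copies, an allele whose name combines an inducible Cre with a red fluorescent protein. In Nkx mice a single copy carried Nkx2.1-GFP, and Double mice were heterozygous for both NANCI-CreERT2:RFP and Nkx2.1-GFP. The labels give the Nkx2-1 genotype of neither WT nor NANCI mice, no drug treatment, and no promoter beyond the locus each allele is named for. There were 3 libraries in each of the 4 E18.5 groups, and 3 WT, 3 Nkx and 4 Double libraries at 6 months. The labels do not say that the libraries of a group came from separate animals. The p-values below therefore rest on the spread among the libraries, part of which may be technical. At E18.5, cells carrying the epithelial protein EpCAM were pulled down magnetically, and 6-month cells were sorted as EpCAM+, CD45- and CD31-, so age and enrichment changed together and no test was made across ages.

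Secreted and membrane proteins fold in the endoplasmic reticulum, helped by chaperones such as Hspa5 (BiP) and by disulfide isomerases. When unfolded proteins gather there, the sensors Ern1 (IRE1), Atf6 and Eif2ak3 (PERK) raise chaperone and degradation genes through the transcription factors XBP1 and ATF6, and slow translation while favouring ATF4. ATF4 is also raised by amino acid shortage through the kinase Eif2ak4 (GCN2), and drives genes of amino acid synthesis and transport together with stress genes such as Ddit3 (CHOP) and Trib3. In lung, alveolar type 2 (AT2) cells, which secrete surfactant, and goblet cells, which secrete mucin, carry a large load of secreted protein.

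The promoters of these genes carry different short sequences, which are shown because they are the letters through which the factors of each branch are known to act. RefSeq promoters on GRCm38.p6 were matched for 33 of the 37 genes, and the 250 bases before the start were searched on both strands. The endoplasmic reticulum stress element, which ATF6 and XBP1 bind with the factor NF-Y, was searched as CCAAT, any 9 bases, and CCACG. It was present in 37 of 32851 promoters (0.11%) and in 9 of the 33 matched genes, of which 7 were among the 12 matched chaperones and 2 among the 9 matched degradation and translocation genes. None of the 7 ATF4-type targets and none of the 5 matched sensors and factors held it. Of the 9 genes with the element, Canx, Creld2, Dnajc3 and Hsp90b1 are not printed below. A second form of the element, ATTGG, any base and CCACG, stood in 10 promoters (0.03%) and in Herpud1 among these genes. The core of the ATF4 element, searched as TGATG, any base and AA, was in 1134 promoters (3.45%), among them Asns, Chac1 and Herpud1. An XBP1-type element, TGACG followed directly by TGG, was in 185 promoters (0.56%) and in none of the 33. The motifs as spelled do not overlap each other in the stretches below, which run 5′ to 3′ on the strand of the gene with the matched letters in capitals. The reverse complement of a motif appears where it lies on the other strand.
Hspa5, chr2:34772013-34772055, plus strand: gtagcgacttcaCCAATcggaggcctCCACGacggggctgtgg
Calr, chr8:84847063-84847105, minus strand: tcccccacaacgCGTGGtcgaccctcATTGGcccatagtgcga
Pdia6, chr12:17266479-17266521, plus strand: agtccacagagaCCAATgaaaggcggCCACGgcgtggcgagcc
Derl3, chr10:75893230-75893272, plus strand: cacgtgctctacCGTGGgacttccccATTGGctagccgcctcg
Syvn1, chr19:6046520-6046562, plus strand: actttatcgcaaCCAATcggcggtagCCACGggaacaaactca
Herpud1, chr8:94386305-94386399, plus strand: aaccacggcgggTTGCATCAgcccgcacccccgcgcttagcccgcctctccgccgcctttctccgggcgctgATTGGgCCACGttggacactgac
Asns, chr6:7693213-7693244, minus strand: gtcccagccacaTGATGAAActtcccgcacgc
Chac1, chr2:119351037-119351068, plus strand: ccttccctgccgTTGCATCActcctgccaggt
Herpud1 was the single matched gene that held both an endoplasmic reticulum stress element and the ATF4 core. A match describes these letters and does not show binding. Of the chaperones with the first element, Calr, Hsp90b1 and Pdia6 rose in 6-month Double against WT lung, and Hspa5, Canx, Creld2 and Dnajc3 did not pass. Of the matched chaperones without it, Pdia3, Pdia4, Dnajb11 and Sdf2l1 rose and Dnajb9 did not pass.

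All values are log2 expression, taken from their ranks as quantile-normalized within each age, and read totals are unknown. Below, groups do not overlap where every library of 1 group lies above every library of the other. The share of all genes that separate in this way was not counted, so a lack of overlap is description alone. As a measure in place of depth, E18.5 libraries held 209 to 284 distinct values up to their median and 6-month libraries 128 to 382. Nkx2-1 itself was at 14.48 to 14.93 in the E18.5 WT libraries and at 14.73 to 14.95 in the Nkx libraries. At 6 months it was at 14.17 to 14.55 in WT, 13.77 to 13.96 in Nkx and 13.75 to 14.43 in Double libraries, and it passed in none of the 7 comparisons (limma, lowest adjusted p 0.114). By Xist and Y-linked genes, all 3 E18.5 NANCI libraries had the male pattern and all 4 6-month Double libraries the female pattern, while every other group held both patterns. E18.5 Nkx replicate 3 had an intermediate Xist value of 11.34 beside Y-linked genes at the male level. Epithelial markers were high in all libraries, with a log2 summed level of 15.95 to 17.38.

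**Figure D1:**
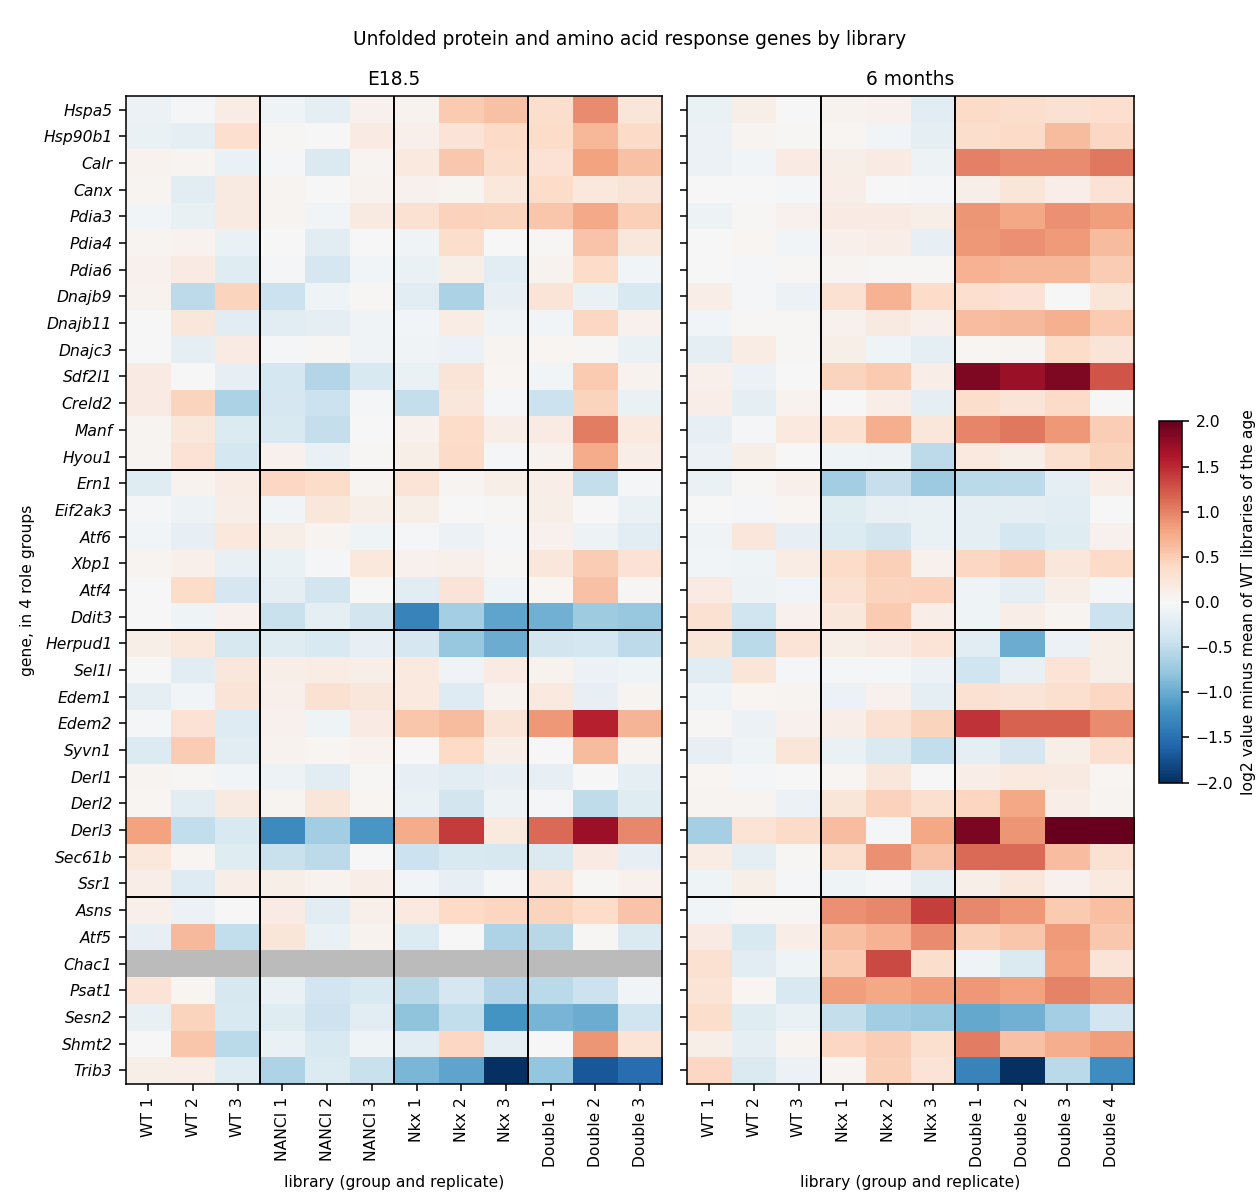
Each cell is a gene's log2 value in 1 library minus the mean of the WT libraries of its age, with genes in 4 role groups and libraries in groups of genotype; colours stop at 2 in either direction, and grey marks Chac1, which was not listed at E18.5. The 6-month Double libraries are higher for Sdf2l1, Calr, Pdia3 and Edem2, and Trib3 is lower in the Double libraries of both ages.

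In E18.5 lung without normal NANCI copies, no gene of the response passed the test. The 14 chaperones had a median log2 difference of -0.09 from WT and the 6 measured ATF4-type targets one of -0.23, beside 0.01 over all 13750 genes. No gene of any kind rose (0.0%) or fell (0.0%) in this comparison (limma, lowest adjusted p 0.0822), and 426 genes had an unadjusted p under 0.05. Among the 36 measured genes that held for 1, Derl3, a derlin of endoplasmic reticulum degradation. Derl3 values were 5.6, 4.29 and 4.48 in the WT libraries and 3.52, 4.09 and 3.62 in the NANCI libraries, all 3 of which lay below the WT libraries. The difference was -1.05 ± 0.46 (SE), with an adjusted p of 0.978 in limma.

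The genes that moved in the other genotypes did not pass here. Ddit3 was at 8.51, 8.77 and 8.58 in the NANCI libraries (-0.33 ± 0.19) and Trib3 at 8.08, 8.43 and 8.25 (-0.45 ± 0.32). All 3 NANCI libraries lay below all WT libraries in both genes, whose WT values are given with the Nkx comparison. Hspa5 was at 14.87, 14.76 and 15.03 (-0.06 ± 0.20), Xbp1 at 12.22, 12.34 and 12.57 (0.02 ± 0.13) and Atf4 at 12.73, 12.56 and 12.91 (-0.19 ± 0.21). Among the ATF4-type targets, Asns was at 10.48, 10.09 and 10.41 (0.02 ± 0.14), Atf5 at 9.56, 9.19 and 9.39 (0.06 ± 0.28) and Shmt2 at 10.66, 10.49 and 10.71 (-0.18 ± 0.28). Each of these 6 genes overlapped between NANCI and WT libraries. Sesn2, at 9.45, 9.28 and 9.48 (-0.29 ± 0.24), and Psat1, at 12.94, 12.69 and 12.77 (-0.28 ± 0.17), overlapped as well. The adjusted p in limma was 0.978 or above for all 10 genes.

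In E18.5 Nkx lung, 3 of the 36 genes fell and none rose: Ddit3, the stress factor CHOP, Trib3, a pseudokinase that restrains ATF4 and CHOP activity, and Herpud1, a membrane protein of endoplasmic reticulum degradation. Over all genes, 3.65% fell and 3.67% rose. No chaperone passed. Ddit3 was at 8.94, 8.86 and 9.04 in the WT libraries and at 7.61, 8.27 and 7.89 in the Nkx libraries. All 3 Nkx libraries lay below all 3 WT libraries. Its change was -1.02 ± 0.19 (2.03-fold lower, limma adjusted p 0.00758). Trib3 values were 8.81, 8.84 and 8.45 in WT and 7.79, 7.65 and 6.67 in Nkx, again without overlap and with replicate 3 lowest. Trib3 fell by 1.33 ± 0.32 on the log2 scale (limma adjusted p 0.0233). For Herpud1 the values were 13.55, 13.64 and 13.11 in WT and 13.09, 12.67 and 12.43 in Nkx, and the highest Nkx library lay just under the lowest WT library. The change of Herpud1 was -0.70 ± 0.17 (adjusted p 0.0274).

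Sesn2, a leucine sensor that restrains mTORC1, and Psat1, an enzyme of serine synthesis, did not pass in this comparison. Sesn2 was at 9.55, 10.15 and 9.39 in WT and 8.89, 9.2 and 8.51 in Nkx, with a difference of -0.83 ± 0.24 (limma adjusted p 0.0568). Psat1 was at 13.35, 13.12 and 12.76 in WT and 12.53, 12.75 and 12.5 in Nkx, with a difference of -0.49 ± 0.17 (adjusted p 0.107). In both genes all Nkx libraries were lower than all WT libraries. Asns, the asparagine synthetase, was at 10.51, 10.71 and 10.74 in Nkx, above the WT libraries, with a difference of 0.34 ± 0.14 that did not pass (adjusted p 0.166). Atf5 was at 9.15, 9.97 and 8.82 in WT and 9.05, 9.31 and 8.7 in Nkx (-0.29 ± 0.28). Shmt2, the mitochondrial serine hydroxymethyltransferase, was at 10.79, 11.35 and 10.26 in WT and 10.59, 11.22 and 10.61 in Nkx (0.01 ± 0.28). Atf5 and Shmt2 overlapped between the groups, as did the upstream genes. Atf4 mRNA was at 12.91, 13.28 and 12.58 in WT and 12.7, 13.18 and 12.83 in Nkx (-0.02 ± 0.21). Xbp1 mRNA was at 12.41, 12.46 and 12.21 in WT and 12.44, 12.46 and 12.38 in Nkx (0.06 ± 0.13), and Hspa5 in Nkx at 15.02, 15.47 and 15.54 (0.39 ± 0.20, adjusted p 0.27). The median difference was 0.10 for the chaperones and -0.39 for the ATF4-type targets, beside 0.02 for all genes. Leaving out 1 library at a time, the second median ran from -0.59 without WT replicate 3 to -0.21 without WT replicate 2, and the first from 0.02 without Nkx replicate 2 to 0.16 without Nkx replicate 1.

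Markers of other cells moved in the same libraries. The log2 summed level of 7 leukocyte markers was 16.04 to 16.69 in E18.5 WT libraries and 13.53 to 14.67 in Nkx libraries, and 5 of the 7 fell. Such a sum follows the highest markers. The mean log2 value of the 7 was 8.14 to 8.59 in WT and 5.32 to 6.17 in Nkx libraries. The 7, used for all leukocyte values here, include Lyz2, and whether the epithelial cells express it was not tested. At the lowest value of their library were Cd53 and Adgre1, each in 1 Nkx library. Goblet markers, at 8.44 to 9.86 in WT and 11.78 to 14.19 in Nkx libraries, rose for all 5, with Tff2 at the lowest value in all 3 WT libraries. The part of these cells in the differences above was not tested, and in bulk RNA fewer cells of a type and less RNA per cell cannot be told apart. Fitted with the Nkx and WT libraries alone, none of the 3 genes passed (limma adjusted p 0.0604 for Ddit3, 0.0737 for Trib3 and 0.13 for Herpud1). Trib3 and Herpud1 lost their calls without Nkx replicate 3, WT replicate 1 or WT replicate 2, Herpud1 also without Nkx replicate 2, and the count was 6 without WT replicate 3, among them Sesn2 and Psat1.

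In E18.5 Double lung, 4 of the 36 genes rose and 2 fell. The genes that rose were Edem2, which trims mannose from misfolded glycoproteins before their degradation, Pdia3, a disulfide isomerase that works with the lectin chaperones, Calr, the lectin chaperone calreticulin, and Asns. Ddit3 and Trib3 fell. Over all genes, 7.13% rose and 7.47% fell. Of the 14 chaperone differences 11 lay above 0, with a median of 0.27 beside 0.02 for all genes. The 6 measured ATF4-type targets had a median of -0.3.

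Edem2 was at 10.78, 11.11 and 10.56 in the WT libraries and at 11.69, 12.38 and 11.5 in the Double libraries. The groups did not overlap, and Double replicate 2 was highest. Edem2 rose by 1.04 ± 0.21 (2.05-fold, limma adjusted p 0.00664). Pdia3 was at 15.07, 14.97 and 15.3 in WT and 15.67, 15.87 and 15.6 in Double, with no overlap, and rose by 0.60 ± 0.14 (adjusted p 0.0115). Calr stood at 14.43, 14.42 and 14.22 in WT and 14.65, 15.17 and 14.95 in Double, a rise of 0.57 ± 0.16 (adjusted p 0.0308). Here too every Double library lay above every WT library. Asns was at 10.41, 10.19 and 10.32 in WT and 10.76, 10.68 and 10.88 in Double, again without overlap, and rose by 0.46 ± 0.14 (adjusted p 0.0405).

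Of the 36 genes 2 fell, Ddit3 and Trib3, beside 7.47% of all genes, while the ATF4-type target Asns rose. Ddit3 was at 7.99, 8.24 and 8.19 in the Double libraries, all below the WT libraries, a change of -0.81 ± 0.19 (limma adjusted p 0.015). Trib3 was at 7.93, 7 and 7.17 in the Double libraries, also all below WT, a change of -1.33 ± 0.32 (adjusted p 0.014). Sesn2 values of 8.77, 8.71 and 9.3 in Double also lay below WT, and its difference of -0.77 ± 0.24 had an adjusted p of 0.0507. Hspa5 was at 14.83, 14.92 and 15.1 in WT and 15.3, 15.89 and 15.19 in Double, a difference of 0.51 ± 0.20 that did not pass (adjusted p 0.106). Xbp1 at 12.58, 12.87 and 12.65 lay above WT in all Double libraries without passing (0.34 ± 0.13, adjusted p 0.0933), and Atf4 at 12.96, 13.51 and 12.94 overlapped WT (0.21 ± 0.21). Psat1 at 12.54, 12.65 and 13.03, Shmt2 at 10.8, 11.68 and 11.08 and Atf5 at 8.77, 9.34 and 9.03 in the Double libraries each overlapped the WT libraries and did not pass.

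Double replicate 2 was the highest of all 12 E18.5 libraries for 10 of the 14 chaperones. Without it the chaperone median was 0.11 and 3 genes passed, and with the stand-in for depth as a covariate the median was 0.12. Fitted with the Double and WT libraries alone, 2 genes passed. The marker sums also differed: AT2 markers were at 20 to 20.4 in WT and 18.7 to 19.38 in Double libraries, and all 5 fell, leukocyte markers were at 12.96 to 14.44 in Double libraries, where 6 of 7 fell, and goblet markers were at 12.34 to 13.39, where all 5 rose. Sftpc, the highest AT2 marker, stood at 19.62, the top value of the age, in WT replicates 1 and 2, so the scale caps those sums. At the lowest value of their library were Adgre1 and Ctss, each in 1 Double library. Their part in the differences was not tested.

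Between E18.5 Double and Nkx lung no gene of the response passed. Over all genes 1 rose (0.00727%) and none fell (0.0%) by limma, while 559 had an unadjusted p under 0.05, 2 of them among the 36. Those 2 were Edem2, with a difference of 0.56 ± 0.21, and Xbp1, with one of 0.28 ± 0.13. All 14 chaperones had differences above 0, with a median of 0.17 and a range of 0.03 to 0.28. Over all 13750 genes 6851 differences lay above 0, with a median of 0.0. The 14 genes were measured in the same libraries, and without Double replicate 2 the chaperone median was 0.01.

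At 6 months, Nkx lung showed its changes among the ATF4-type targets. Asns, Psat1 and Atf5, a stress transcription factor that ATF4 induces, rose, no gene of the 37 fell, and no chaperone passed. Over all 15958 genes, 1.52% rose and 1.11% fell. The median log2 difference of the 7 targets was 0.73 and that of the 14 chaperones 0.04, beside 0.01 for all genes.

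Asns was at 9.61, 9.69 and 9.69 in the 6-month WT libraries and at 10.58, 10.62 and 11.05 in the Nkx libraries, a rise of 1.09 ± 0.16 (2.13-fold, limma adjusted p 0.00874). Psat1 was at 8.99, 8.76 and 8.42 in WT and 9.56, 9.49 and 9.55 in Nkx, a rise of 0.81 ± 0.16 (adjusted p 0.0271). Atf5 was at 10.55, 10.07 and 10.52 in WT and 10.98, 11.08 and 11.33 in Nkx, a rise of 0.75 ± 0.16 (adjusted p 0.0347). In each of these 3 genes every Nkx library lay above every WT library. Shmt2 was at 9.41, 9.11 and 9.34 in WT and 9.7, 9.78 and 9.61 in Nkx (0.41 ± 0.15, adjusted p 0.149), and Chac1, which breaks down glutathione, was at 6.91, 6.4 and 6.52 in WT and 7.14, 7.93 and 6.96 in Nkx (0.73 ± 0.37, adjusted p 0.272). Both had no overlap between the groups and did not pass.

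Sesn2 stood on the other side, at 10.92, 10.33 and 10.44 in WT and 10.1, 9.88 and 9.82 in Nkx, a difference of -0.63 ± 0.20 that did not pass (limma adjusted p 0.111). Trib3 was at 9.11, 8.41 and 8.58 in WT and 8.76, 9.18 and 8.97 in Nkx, which overlapped (0.26 ± 0.38). Atf4 itself was at 13.06, 12.8 and 12.85 in WT and 13.2, 13.35 and 13.36 in Nkx, higher in all 3 Nkx libraries but short of the threshold (0.40 ± 0.12, adjusted p 0.093). Hspa5 was at 15.25, 15.27 and 14.95 (-0.02 ± 0.15) and Xbp1 at 13.45, 13.55 and 13.16 (0.30 ± 0.13, adjusted p 0.205) in the Nkx libraries, and Ddit3 was at 9.57, 9.87 and 9.49 (0.30 ± 0.21). All 3 overlapped WT. Ern1 differed by -0.62 ± 0.17 (adjusted p 0.0807) and Dnajb9, a cochaperone of Hspa5, by 0.46 ± 0.13 (adjusted p 0.0952), both without overlap and neither passing. Asns passed under every alternative tried. Atf5 and Psat1 did not: with the replicate number as a block their adjusted p was 0.0547 and 0.075 and 1 gene remained, and without any single Nkx library, or without WT replicate 2 or 3, 1 gene passed. Goblet markers were at 11.09 to 13.35 in WT and 13.79 to 14.47 in Nkx libraries, with 4 of 5 risen, and their part was not tested.

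**Figure D2:**
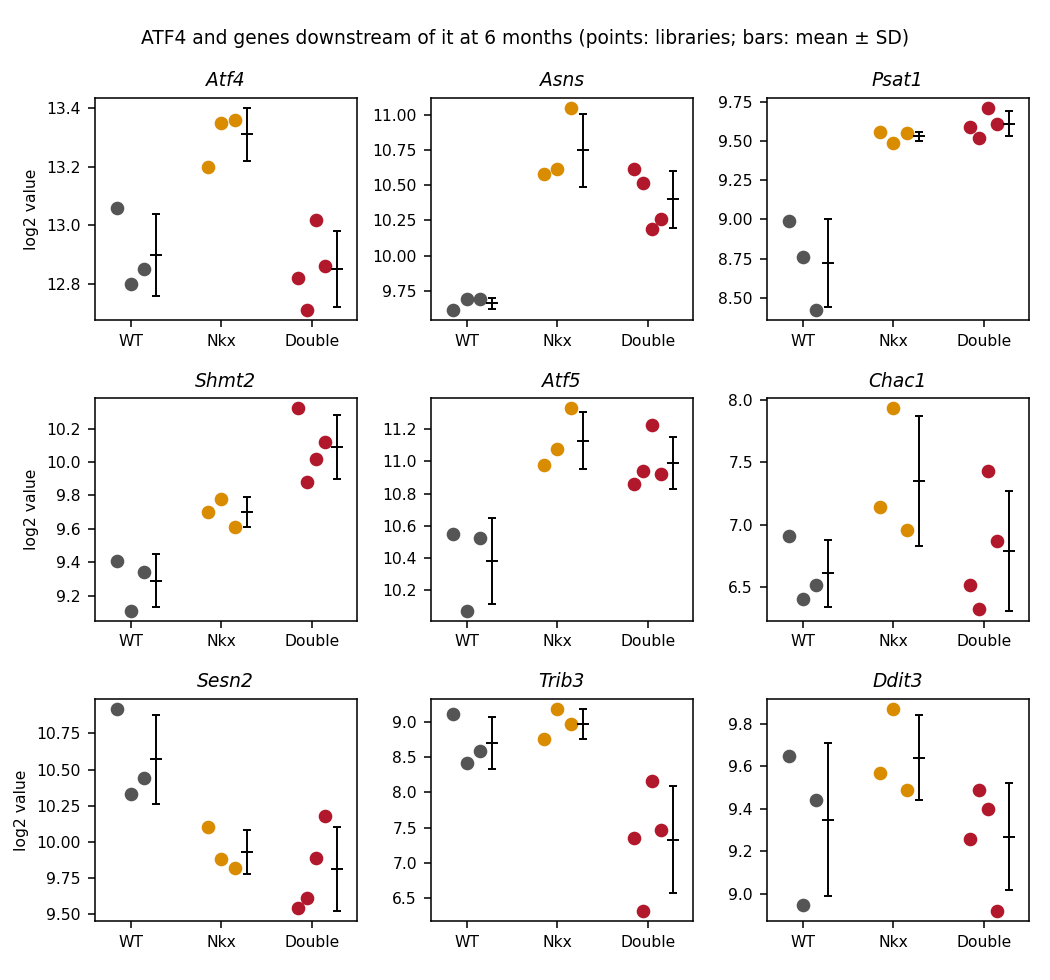
Log2 values of Atf4, Ddit3 and the 7 ATF4-type targets in the 6-month libraries (points) with the group mean and SD (bars); each panel has its own axis, which does not start at 0. Asns, Psat1, Shmt2 and Atf5 are higher than WT in all Nkx and Double libraries, Sesn2 is lower in all of them, Trib3 is lower than WT in the Double libraries alone, and Atf4 is high in the Nkx libraries alone.

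The broadest changes were in 6-month Double lung, where 17 of the 37 genes rose and 2 fell, beside 18.4% of all genes that rose and 17.9% that fell. Of the 14 chaperones and folding enzymes 8 rose and none fell, 14 of 14 differences lay above 0, and their median was 0.53 beside 0.06 for all genes. Sdf2l1, a partner of Hspa5 in the chaperone complex of the endoplasmic reticulum, led with a 3.22-fold rise. The 4 ATF4-type targets Asns, Psat1, Shmt2 and Atf5 rose, while Trib3 and Sesn2 fell. The median difference of the 7 ATF4-type targets was 0.61.

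Among the Hspa5 partners, Sdf2l1 was at 9.94, 9.73 and 9.84 in the WT libraries and at 11.71, 11.57, 11.71 and 11.1 in the Double libraries. All 4 Double libraries lay well above WT, and the rise was 1.69 ± 0.16 (limma adjusted p 2.27e-05). Manf, a nucleotide-state regulator of Hspa5 that is also secreted, was at 12.1, 12.22 and 12.45 in WT and 13.23, 13.32, 13.12 and 12.75 in Double, a rise of 0.85 ± 0.16 (adjusted p 0.00191). Dnajb11, a cochaperone that hands clients to Hspa5, was at 11.8, 11.88 and 11.88 in WT and 12.46, 12.5, 12.56 and 12.37 in Double, a rise of 0.62 ± 0.09 (adjusted p 0.000307). Neither gene overlapped between the groups. Hspa5 itself was at 15.04, 15.3 and 15.19 in WT and 15.56, 15.53, 15.48 and 15.52 in Double. Its Double libraries also lay above WT, yet its difference of 0.34 ± 0.14 did not pass (95% interval 0.04 to 0.65, adjusted p 0.0711). Hyou1, the exchange factor of Hspa5, differed by 0.27 ± 0.13, Dnajb9 by 0.22 ± 0.12 and Dnajc3, a cochaperone that also inhibits PERK, by 0.18 ± 0.13, and none of the 3 passed.

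Of the lectin chaperones, Calr was at 14.36, 14.43 and 14.64 in WT and 15.48, 15.42, 15.43 and 15.53 in Double, and rose by 0.99 ± 0.13 (1.98-fold, limma adjusted p 0.000158). Canx, the membrane-bound counterpart calnexin, was at 13.74, 13.75 and 13.71 in WT and 13.86, 13.98, 13.87 and 14.03 in Double and did not pass (0.20 ± 0.10, adjusted p 0.145). The Double libraries were above WT in both. Hsp90b1 (GRP94), the endoplasmic reticulum HSP90, was at 14.56, 14.73 and 14.7 in WT and 15.02, 15.05, 15.31 and 15.08 in Double, a rise of 0.45 ± 0.13 (adjusted p 0.0171). Creld2, a secreted stress protein, differed by 0.24 ± 0.13 and did not pass.

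The 3 disulfide isomerases all rose. Pdia3 was at 14.23, 14.35 and 14.41 in WT and 15.22, 15.1, 15.24 and 15.17 in Double, a rise of 0.85 ± 0.11 (limma adjusted p 0.000173). Pdia4 was at 12.55, 12.59 and 12.5 in WT and 13.41, 13.47, 13.4 and 13.19 in Double, a rise of 0.82 ± 0.11 (adjusted p 0.000177). Pdia6 was at 14.08, 14.07 and 14.12 in WT and 14.78, 14.76, 14.75 and 14.59 in Double, a rise of 0.63 ± 0.10 (adjusted p 0.000746). In none of the 3 did the groups overlap.

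Of the sensors and factors Xbp1 alone passed. Xbp1 mRNA, whose splicing these values do not show, was at 13.02, 13 and 13.23 in WT and 13.49, 13.57, 13.31 and 13.47 in Double, all 4 above WT, a rise of 0.38 ± 0.12 (limma adjusted p 0.0294). Ern1 differed by -0.27 ± 0.16, Atf6 by -0.19 ± 0.13 and Eif2ak3 by -0.15 ± 0.10. Atf4, at 12.82, 12.71, 13.02 and 12.86 in Double, differed by -0.05 ± 0.11, with a 95% interval of -0.29 to 0.19. Ddit3 was at 9.65, 8.95 and 9.44 in WT and 9.26, 9.49, 9.4 and 8.92 in Double, which overlapped (-0.08 ± 0.20, 95% interval -0.51 to 0.35).

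Degradation and translocation genes were mixed, with 4 of 10 risen and none fallen. Derl3 was at 5.4, 6.33 and 6.45 in WT and 7.94, 6.95, 8.92 and 8.05 in Double, a rise of 1.91 ± 0.45 (3.75-fold, limma adjusted p 0.00627) with wide spread among the Double libraries. Edem2 was at 11.66, 11.51 and 11.72 in WT and 13.07, 12.81, 12.81 and 12.57 in Double, a rise of 1.18 ± 0.13 (adjusted p 5.12e-05). Sec61b, a subunit of the translocation channel, was at 11.54, 11.21 and 11.42 in WT and 12.53, 12.53, 12 and 11.7 in Double (0.80 ± 0.21, adjusted p 0.0114). Edem1 was at 11.44, 11.57 and 11.58 in WT and 11.83, 11.78, 11.85 and 11.94 in Double (0.32 ± 0.10, adjusted p 0.0248). All 4 genes had every Double library above every WT library. The ubiquitin ligase Syvn1 and its partner Sel1l had differences of -0.02 ± 0.17 and -0.04 ± 0.16, and Herpud1 one of -0.30 ± 0.26. Derl1, Derl2 and Ssr1 had differences of 0.14 to 0.35 and did not pass.

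The ATF4-type targets divided in Double lung as they stand in the plot of ATF4 targets at 6 months. Psat1 was at 9.59, 9.52, 9.71 and 9.61 (0.89 ± 0.15, limma adjusted p 0.000835), Shmt2 at 10.32, 9.88, 10.02 and 10.12 (0.80 ± 0.14, adjusted p 0.00105). Asns was at 10.62, 10.52, 10.19 and 10.26 (0.73 ± 0.15, adjusted p 0.00268) and Atf5 at 10.86, 10.94, 11.23 and 10.92 (0.61 ± 0.15, adjusted p 0.00777). These 4 rose, with all Double libraries above WT. Trib3 was at 7.36, 6.32, 8.16 and 7.46 and fell by 1.38 ± 0.36 on the log2 scale (2.6-fold lower, adjusted p 0.0112). Sesn2 was at 9.54, 9.61, 9.89 and 10.18 and fell by 0.76 ± 0.19 (adjusted p 0.00797). Both lay below WT in all 4 libraries. Chac1, at 6.52, 6.32, 7.43 and 6.87, overlapped WT (0.18 ± 0.35).

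**Figure D3:**
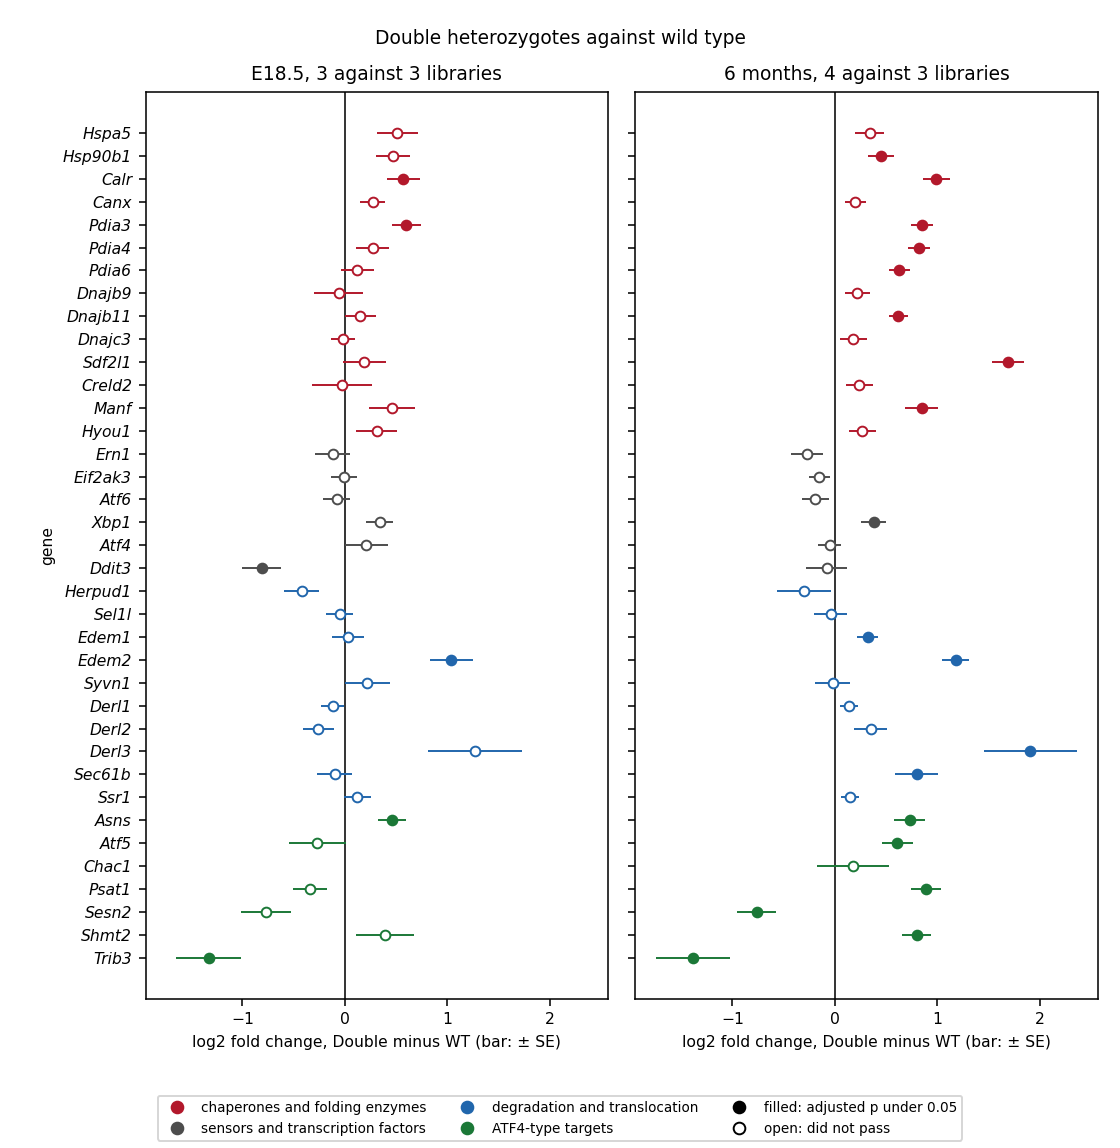
Log2 fold changes of the 37 genes in Double against WT lung at E18.5 (left) and 6 months (right), with bars of 1 SE, colours for the 4 role groups and filled points for adjusted p under 0.05 in limma. At 6 months all 14 chaperones lie to the right of 0 and 8 are filled, and Trib3 lies at -1.33 and -1.38.

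The 4 Double libraries all had the female pattern, against 1 of 3 WT libraries, and with this pattern as a covariate 14 of the 37 genes passed: Hsp90b1, Xbp1, Edem1, Sec61b and Trib3 no longer did. Their differences in that fit were 0.37, 0.19, 0.24, 0.77 and -1.31 (limma adjusted p 0.128, 0.314, 0.189, 0.0627 and 0.0632). With the replicate number as a block, Hsp90b1, Xbp1 and Edem1 did not pass (adjusted p 0.0503, 0.0722 and 0.0764). Xbp1 also lost its call without Double replicate 1 or 2 or WT replicate 1 or 2, Hsp90b1 without WT replicate 1, Edem1 without WT replicate 1 or 2, and Sec61b without WT replicate 2. The log2 summed level of 5 goblet markers was 11.09 to 13.35 in WT and 17.61 to 18.24 in Double libraries, and all 5 rose. AT2 markers, at 21.72 to 21.75 in WT and 19.47 to 21.39 in Double, fell for 4 of 5. Sftpc, the highest of them, stood at 21.19, the top value of the age, in every WT and Nkx library and in Double replicate 2. The scale therefore caps these AT2 sums, and the size of their differences cannot be read from them. Endothelial markers (14.09 to 15.46 in WT, 11.12 to 12.22 in Double) fell for 4 of 4 and mesenchymal markers (12.64 to 13.52, and 9.37 to 11.32) for 5 of 6, while the summed plasma cell level was 15.24 to 15.35 and 15.61 to 15.99. Of those 5 markers Sdc1, which epithelial cells also express, rose (0.54 ± 0.14), and Jchain, Mzb1, Ighm and Igkc had differences of -1.10 to -0.11 that did not pass. Epithelial markers, at 16.27 to 16.34 in WT and 16.88 to 17.38 in Double, rose for 3 of 4, with a median of 1.06. Ciliated markers (14.02 to 14.52, and 12.47 to 12.98) fell for 3 of 3 and alveolar type 1 markers (16.3 to 17.29, and 15.04 to 15.92) for 2 of 4, and 1 of 3 club cell markers rose (18.77 to 20.52, and 20.14 to 21.54). The club cell sums are capped too, as Scgb1a1 stood at the top value of 21.19 in Double replicates 1, 3 and 4. Of 7 leukocyte markers 1 rose and 1 fell (19.74 to 20.24, and 18.88 to 20.25). Their mean log2 value was 9.4 to 9.79 in WT and 8.7 to 11.47 in Double libraries. Of the 7 differences 4 lay above 0 and 3 below, with a median of 0.82. Immediate early genes, which tissue dissociation raises, were at 17.53 to 18.55 in WT and 16.3 to 17.53 in Double, and 6 of 9 fell. The part of these cells and of dissociation in the chaperone and Trib3 differences was not tested.

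Set directly against 6-month Nkx lung, Double lung was higher in 11 of the 37 genes and lower in 2, beside 10.2% of all genes higher and 11.5% lower. Of the 14 chaperones 8 were higher, and they made up 8 of the 11 higher genes. Their median difference was 0.50 beside 0.03 for all genes. Sdf2l1, at 10.29, 10.36 and 9.98 in the Nkx libraries, was higher in Double by 1.32 ± 0.16 (2.49-fold, limma adjusted p 0.000344). Calr, at 14.6, 14.64 and 14.38 in Nkx, was higher by 0.92 ± 0.13 (adjusted p 0.000657). Neither gene overlapped between the groups. The disulfide isomerases in the Nkx libraries were at 12.65, 12.68 and 12.39 for Pdia4 (0.80 ± 0.11), at 14.5, 14.5 and 14.44 for Pdia3 (0.70 ± 0.11) and at 14.14, 14.11 and 14.11 for Pdia6 (0.60 ± 0.10). Hsp90b1 was at 14.71, 14.61 and 14.49 (0.51 ± 0.13) and Dnajb11 at 11.93, 12.03 and 11.95 (0.50 ± 0.09). All 5 lay below every Double library. Hyou1 was at 12.99, 12.97 and 12.54 in Nkx and 13.26, 13.19, 13.39 and 13.51 in Double, all above Nkx (0.50 ± 0.13, adjusted p 0.0198). Hspa5 was above Nkx in all Double libraries but did not pass (0.37 ± 0.14, adjusted p 0.0819). Of the degradation genes, Edem2 was at 11.76, 11.93 and 12.08 in Nkx (0.89 ± 0.13), Edem1 at 11.42, 11.62 and 11.35 (0.39 ± 0.10) and Derl3 at 6.67, 6.04 and 6.83 (1.45 ± 0.45, adjusted p 0.0379). These 3 were higher in Double lung, again without overlap.

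Trib3 and Atf4 were the genes lower in Double than in Nkx lung. Trib3 fell by 1.64 ± 0.36 on the log2 scale (3.12-fold lower, limma adjusted p 0.00763) and Atf4 by 0.45 ± 0.11 (1.37-fold lower, adjusted p 0.0127), with every Double library below every Nkx library in both. Asns differed by -0.36 ± 0.15 (adjusted p 0.113), Psat1 by 0.08 ± 0.15 (95% interval -0.25 to 0.40), Atf5 by -0.14 ± 0.15 (-0.47 to 0.18) and Sesn2 by -0.12 ± 0.19 (-0.53 to 0.28), and none of these passed. The ATF4-type targets had a median of -0.14. Atf4 and Hsp90b1 did not pass without Nkx replicate 2 or 3, Edem1 without Nkx replicate 1 or 3, and Hyou1 without Nkx replicate 3, where the count of passing genes was 8. Derl3 did not pass under 9 of 14 alternatives, among them leaving out Double replicate 1, 3 or 4 or any Nkx library, and the replicate block (limma adjusted p 0.0683). The block also ended the calls of Hsp90b1, Hyou1 and Edem1 (adjusted p 0.0551, 0.082 and 0.065). With the sex pattern as a covariate 11 genes passed beside 13, and Hyou1 (0.43, adjusted p 0.0513) and Derl3 (1.43, adjusted p 0.0697) did not.

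Markers differed between the same libraries. Goblet markers had a log2 summed level of 13.79 to 14.47 in Nkx and 17.61 to 18.24 in Double libraries, and all 5 were higher in Double, with a median difference of 3.27. Epithelial markers (16.27 to 16.58 in Nkx) were higher for 3 of 4. Endothelial markers (13.56 to 14.62 in Nkx) were lower for 4 of 4, mesenchymal markers (12.08 to 12.6) for 5 of 6, ciliated markers (13.36 to 14.19) for 3 of 3, alveolar type 1 markers (16.78 to 17.49) for 3 of 4 and AT2 markers (21.55 to 21.6) for 2 of 5. Immediate early genes, at 18.16 to 18.48 in Nkx, were lower for 6 of 9. The part of these cells and of dissociation in the differences between Double and Nkx lung was not tested.

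Per library, the mean log2 value of the 14 chaperones minus that of the measured ATF4-type targets sums up the relation of both groups of genes within an age. At E18.5 this difference was 2.27 to 2.81 in WT, 2.55 to 2.69 in NANCI, 2.93 to 3.36 in Nkx and 2.92 to 3.37 in Double libraries. Nkx and Double libraries did not overlap WT or NANCI libraries there, and overlapped each other. The E18.5 target means take in Trib3, which differed from WT by -1.33 in both Nkx and Double lung, and Sesn2 (-0.83 and -0.77). Of the 6 targets 4 lay below WT in each genotype and 2 above, Asns (0.34 and 0.46) and Shmt2 (0.01 and 0.39). At 6 months the chaperone minus target difference was 3.65 to 4.1 in WT, 3.4 to 3.64 in Nkx and 4.18 to 4.64 in Double libraries. Nkx libraries were narrowly under WT, and Double libraries above. In Double against WT the median difference of the 7 targets, at 0.61, was not below that of the chaperones, at 0.53. The mean of the targets also takes in the falls of Trib3 (-1.38) and Sesn2 (-0.76), while 4 of the 7 rose. Since 6 targets were measured at E18.5 and 7 at 6 months, on separately normalized values, the levels are not compared between ages.

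**Figure D4:**
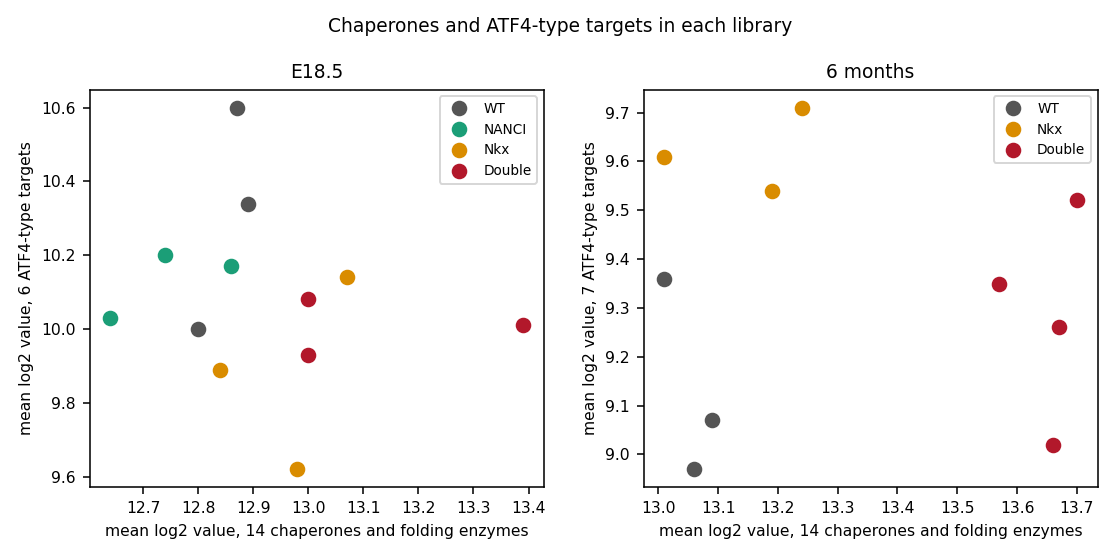
Each point is a library, with the mean log2 value of the 14 chaperones on the x axis and that of the ATF4-type targets on the y axis, at E18.5 (left, 6 targets) and 6 months (right, 7 targets); axes do not start at 0. At 6 months the 4 Double libraries stand to the right of all WT and Nkx libraries, and the 3 Nkx libraries stand highest; E18.5 Double replicate 2 stands apart to the right.

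The Double comparisons of the 2 ages share no library. Of the 4 genes that rose at E18.5 all 4 (Asns, Calr, Edem2 and Pdia3) also rose at 6 months, where they made up 4 of 17. Over all genes 18.4% rose and 17.9% fell in 6-month Double lung. The E18.5 calls of Asns and Calr were lost under 8 and 7 of 13 alternatives. Trib3 was the 1 gene that fell at both ages, of 2 at each. Ddit3, which fell at E18.5, had a difference of -0.08 ± 0.20 at 6 months. For Nkx against WT no gene was called in the same direction at both ages: Ddit3, Trib3 and Herpud1 fell at E18.5 and Asns, Psat1 and Atf5 rose at 6 months. The overlap of calls between ages was not counted over all genes, and the differences between ages were not tested.

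Other genes of the same pathways were taken from lists chosen by function, which leave out the 37. Over all genes, 18.4% rose and 17.9% fell in 6-month Double against WT, 10.2% and 11.5% in 6-month Double against Nkx, 7.13% and 7.47% in E18.5 Double and 3.67% and 3.65% in E18.5 Nkx against WT. Among 20 other folding genes, 10 rose and none fell in 6-month Double against WT, led by Agr2, a disulfide isomerase of mucin-secreting cells that is also among the goblet markers (6.73 ± 0.46), Pdia5 (2.23 ± 0.26), Erp44 (0.92 ± 0.12), P4hb (0.73 ± 0.16) and Txndc5 (0.69 ± 0.09). At E18.5 Agr2 rose by 2.76 ± 0.39 in Double and 2.75 ± 0.39 in Nkx lung, and Pdia5, Txndc5 and P4hb rose in Double lung. Agr2 was the 1 of the 20 that rose in 6-month Nkx lung (2.20 ± 0.49). Against Nkx lung, 8 rose in 6-month Double lung and Fkbp14 fell (-0.70 ± 0.20).

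Of 17 other translocation and signal peptide genes 12 rose in 6-month Double against WT, beside 18.4% of all genes, among them Ssr4 of the translocon-associated complex (1.22 ± 0.20), the signal peptidase subunits Sec11c (1.17 ± 0.18) and Spcs3 (0.87 ± 0.12), Ostc (0.75 ± 0.18) and Serp1 (0.74 ± 0.12). Spcs3 (0.53 ± 0.14) and Sec11c (0.50 ± 0.13) were the 2 that rose in E18.5 Double lung, where 7.13% of all genes rose. None of the 17 passed in Nkx lung at either age, and 5 were higher in 6-month Double than Nkx lung, beside 10.2% of all genes. Among 14 measured other degradation genes, 4 rose and 1 fell in 6-month Double against WT (18.4% and 17.9% of all genes). The risen genes were led by Erlec1 (0.84 ± 0.12) and Vcp (0.81 ± 0.13), the ATPase that pulls proteins from the membrane. Against 6-month Nkx lung 2 rose, Vcp (0.70 ± 0.13) and Erlec1 (0.57 ± 0.12), and 2 fell, beside 10.2% and 11.5% of all genes. None passed in E18.5 lung.

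Among 20 measured other sensors and regulators, Ern2 (IRE1β), the IRE1 form of mucous epithelium, rose in every genotype that carried Nkx2.1-GFP. Its log2 change from WT was 4.51 ± 0.46 in E18.5 Nkx, 5.88 ± 0.46 in E18.5 Double, 1.30 ± 0.27 in 6-month Nkx and 5.54 ± 0.25 in 6-month Double lung (limma adjusted p 0.000166, 2.66e-05, 0.0338 and 5.38e-07). Creb3l1 (0.90 ± 0.18 and 0.79 ± 0.18) and Creb3l4 (1.20 ± 0.24 and 1.43 ± 0.24), transcription factors of secretory cells, rose in E18.5 Nkx and Double lung, and by 1.04 ± 0.19 and 1.15 ± 0.25 in 6-month Double lung. Ppp1r15a (GADD34), which undoes the translational arrest by PERK, fell by 1.64 ± 0.20 in 6-month Double against WT and by 1.90 ± 0.20 against Nkx. Bbc3 (PUMA), a cell death gene, fell in E18.5 Nkx (-1.17 ± 0.31) and 6-month Double lung (-0.71 ± 0.17). In 6-month Double against WT 6 of the 20 rose and 3 fell, beside 18.4% and 17.9% of all genes, and the counts against 6-month Nkx lung were also 6 and 3, beside 10.2% and 11.5%.

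Of 35 other amino acid response genes measured at 6 months, 12 rose and 6 fell in Double against WT, where 18.4% of all genes rose and 17.9% fell. The risen genes included Stc2, a secreted stress protein (2.21 ± 0.42), Phgdh, the entry enzyme of serine synthesis (1.34 ± 0.30), and the proline synthesis enzymes Pycr1 (1.19 ± 0.28) and Aldh18a1 (1.09 ± 0.18). Vldlr (-2.32 ± 0.25), the transporter Slc1a4 (-1.33 ± 0.27) and Cth (-1.27 ± 0.28), which makes cysteine, fell. At E18.5 Phgdh rose in Nkx (1.44 ± 0.34) and Double lung (1.84 ± 0.34), as did the arginine transporter Slc7a1 (0.79 ± 0.16 and 1.13 ± 0.16), while Slc6a9, a glycine transporter, fell (-2.04 ± 0.29 and -1.80 ± 0.29). In all, 2 of 34 rose and 3 fell in E18.5 Nkx lung, beside 3.67% and 3.65% of all genes, and 3 rose and 5 fell in E18.5 Double lung, beside 7.13% and 7.47%. In 6-month Nkx lung Eif4ebp1, a translation repressor, was the 1 that passed (0.76 ± 0.18), and in Double against Nkx 5 rose and 5 fell, beside 10.2% and 11.5% of all genes.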

How the data were processed

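Gene expression was measured by RNA sequencing in 22 libraries, from Trizol-extracted RNA per the labels' protocols. The authors deposited log2 values. Ranked values were nearly identical between the libraries of an age (median SD at equal rank 0.00187 and 0.00242), so they were taken as quantile-normalized. The submitters' processing notes name STAR, limma and the build mm9, with no roles. How reads shared with near-identical copies were counted is unknown. Symbols were matched on gene ID for 99.2% (E18.5) and 96.2% (6 months) of genes.

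For the 7 comparisons, limma 3.58.1 (R 4.3.3) was run with 1 model per age over all its libraries and a mean-variance trend. Benjamini-Hochberg adjustment ran over the whole gene table, with a threshold of 0.05. The value after ± is the standard error. The procedure was tested on simulated data. By comparison, it recovered 45% to 60% of true log2 changes of 1 and 78% to 92% of those of 2, with 6 to 11 false calls. Each simulation drew independent normal values and changed 100 genes of each size, all with a mean above 5. In 6-month Double against WT 2937 genes rose and 2858 fell, so these rates may not carry over to the real comparisons. Smaller changes were not simulated, so a gene that did not pass may still have changed. The genes and lists were chosen with earlier results of these data known. The genes named are those of the 37 that passed, with library values for the groups of the comparison they passed in, and Hspa5, Xbp1, Atf4, Ddit3 and the ATF4-type targets. Of the other pathway genes at most 6 per list and comparison are named. Alternatives were the 2 groups alone, no trend, a mean of at least 5, a replicate block, a sex or depth covariate, recentring and leaving out each library. Deviations of same-numbered E18.5 Double and Nkx libraries correlated at 0.298, 0.504 and 0.18, which does not settle whether equal numbers mark pairs. No gene of the 37 passed there with or without the block. The values of 1 other pathway gene, which is counted in its list, are not reported here.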

Additional observations from a re-analysis of the deposited data

Results flagged for a closer look

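The 37 genes were tested for a library standing apart in the 6-month Double group, the group of 4 libraries, by the gap of its value to the nearest library over the whole range of the group, against Dixon's 95% critical value for 4 libraries. None passed it, although chance gives about 1 in 20. The ratio of Pdia6, with Double replicate 4 lowest, was 0.808, as was that of Hsp90b1, with Double replicate 3 highest, and these were the highest ratios of the 37 genes. In Nkx against WT, 2 genes had every Nkx library below every WT library at E18.5 and above at 6 months. The share of all genes that do so was not counted, so whether 2 is many is not known. Sec61b differed by -0.36 at E18.5 and by 0.6 at 6 months, and passed at neither age (limma adjusted p 0.261 and 0.16). Psat1 differed by -0.49 at E18.5, where it did not pass (adjusted p 0.107), and by 0.81 at 6 months, where it rose (adjusted p 0.0271). The difference between the ages was not tested.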

How the results depend on the processing

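Over the 7 comparisons the 37 genes gave 44 calls, of which 24 held under all alternatives run and 20 were lost under at least 1, and none reversed. With the 2 groups alone, the count of called genes was 0 in E18.5 Nkx against WT and 2 in E18.5 Double against WT. In 6-month Nkx against WT it was 1 without the trend and 1 with the replicate block. The block, as a pairing by replicate number, gave 10 calls beside 13 in 6-month Double against Nkx and 18 beside 19 in Double against WT. These are net counts, as other genes of the 37 passed with the block alone. It ended the calls of Hsp90b1, Hyou1, Edem1 and Derl3 against Nkx and of Hsp90b1, Xbp1 and Edem1 against WT. The E18.5 counts were 0, 3, 6 and 0 as without it, and 6-month Double replicate 4 has no partner. Same-numbered libraries correlated at -0.302 to 0.504 in their deviations. For replicates 1, 2 and 3 the values were -0.178, 0.472 and 0.392 in E18.5 Nkx and WT. They were -0.195, 0.454 and 0.06 in E18.5 Double and WT. Whether equal numbers mark paired libraries is therefore not known. With the depth covariate the chaperone median was 0.12 in E18.5 Double against WT.

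Leaving out 1 library at a time, called genes ranged from 1 to 6 in E18.5 Nkx against WT, 3 to 9 in E18.5 Double against WT, 1 to 2 in 6-month Nkx against WT, 16 to 21 in 6-month Double against WT and 8 to 14 in 6-month Double against Nkx. The chaperone median ranged from 0.11 to 0.35 in E18.5 Double against WT, from 0.01 to 0.25 in E18.5 Double against Nkx and from 0.4 to 0.55 in 6-month Double against Nkx. The median of ATF4-type targets ranged from -0.44 to -0.05 in NANCI against WT and from 0.44 to 0.84 in 6-month Nkx against WT, lowest without WT replicate 3 and without Nkx replicate 2, respectively. In E18.5 Double against WT, Asns lost its call under 8 alternatives, 5 of them leaving out a library (any Double library, WT replicate 1 or 2), Calr under 7, 5 of them leaving out a library (Double replicate 2 or 3, any WT library), and Trib3 under 3 (Double replicate 2 or 3, WT replicate 1). Read totals are unknown, which limits what can be said of genes at low values such as Derl3.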
